A study of Macaca mulatta with 12 samples.

Results

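The miR-148 and miR-152 family of *Macaca mulatta* consists of 3 hairpins, mml-mir-148a, mml-mir-148b and mml-mir-152, each of which gives a 5p and a 3p mature miRNA. The 3 hairpins were chosen by name, because their 3p miRNAs share a seed, from 832 pre-miRNAs, which are a part of the study’s list. The rest of the list was not analysed here. The seed, bases 2 to 8 of a miRNA, is the stretch that chiefly selects the mRNAs to which the miRNA guides an Argonaute protein for repression. Among these 832 pre-miRNAs, no other mature sequence carries the seed of the family. miR-148a is known as an abundant miRNA of hepatocytes, where it represses the LDL receptor and other genes of lipid metabolism, and the family is known to repress DNMT1, the maintenance DNA methyltransferase. The study sequenced small RNAs in 12 profiles of 8 tissues from untreated wild-type animals that the labels give as 36 months old. Kidney, large intestine, muscle and small intestine had 2 profiles each, and liver, lung, occipital lobe and spinal cord had 1 each. Occipital lobe and spinal cord formed a neural group in the tests of levels. The difference between these tissues thus counted as spread within a group, and entered the spread that all groups share. Per the study’s methods all profiles came from 2 animals, so that profiles of different tissues also share animals and the 12 profiles are not 12 independent animals. The labels do not tie the profiles to animals. Thus, p-values measure the spread between these profiles, which may be technical, and do not extend to other animals.

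The 3p miRNAs differ at bases 9 and 10, just past the seed, and at their 3’ ends. The mature sequences of the study’s list are printed 5’ to 3’ with the seed in capitals, because the shared seed defines the family and the few other bases decide which reads can be told apart.

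miR-148a-3p: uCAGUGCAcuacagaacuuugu

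miR-148b-3p: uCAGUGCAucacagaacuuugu

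miR-152-3p: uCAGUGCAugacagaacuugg

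miR-148a-5p: aAAGUUCUgagacacuccgacu

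miR-148b-5p: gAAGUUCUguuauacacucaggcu

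miR-152-5p: aGGUUCUGugauacacuccgacu

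Counted from 1 at the 5’ end, miR-148b-3p differs from miR-148a-3p by C9U and U10C, and miR-152-3p differs from miR-148a-3p by C9U, U10G and U20G. The step from miR-148b-3p to miR-152-3p consists of C10G and U20G. The 5p miRNAs of mir-148a and mir-148b share the seed aaguucu, and that of mir-152 has gguucug. In the RefSeq annotation of assembly T2T-MMU8v2.0, MIR148B lies within COPZ1 and MIR152 within COPZ2, which encode the paralogous zeta subunits of the COPI coat of transport vesicles. MIR148A lies within the long non-coding RNA gene LOC144339881. Strand and exon were not compared, and no genome of the study’s build was used.

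The profiles held 22118095 to 25579064 valid reads, with a median of 23808362.5, so that 1 read stood for 0.391 to 0.452 RPTM, the reads per 10000000 valid reads. Markers of liver, muscle and neural tissue were highest in the profiles with these labels. miR-122a-5p, the miRNA of hepatocytes, was at 7320 RPTM in liver and at most at 4.37 RPTM elsewhere. miR-206-3p was at 117 and 137 RPTM in the muscle profiles against at most 1.30 elsewhere. The neuronal miR-124a-1-3p was at 10508 RPTM in the occipital lobe and at 3278 RPTM in the spinal cord. The intestinal epithelium list, miR-192-5p, miR-194-1-5p and miR-215-5p, was highest in small intestine. In large intestine, miR-192-5p and miR-194-1-5p were lower than in liver, and miR-215-5p was higher. All 3 miRNAs of the red blood cell list were higher in muscle 2 than in muscle 1, with miR-451-5p at 5006 against 295 RPTM, miR-144-3p at 200.4 against 18.4 RPTM and miR-486-5p at 815651 against 449799 RPTM. The 3 did not move together across tissues. In lung, miR-451-5p (1362 RPTM) and miR-144-3p (241.8 RPTM) were above muscle 1, whereas miR-486-5p (265062 RPTM) was below it.

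Reads were counted in 2 ways. By the exact rule, a read had to match the hairpin over its whole length with both ends within 2 nucleotides of the mature miRNA. By the tailed rule, a read could also end in up to 3 nucleotides that do not match the hairpin, and its matching part could end up to 4 nucleotides from the annotated 3’ end. No exact read of the family was shared with another of the 832 hairpins. The rule mattered little for miR-148a-3p, with 1571060 exact reads and 2128557 tailed-rule reads over the 12 profiles, a ratio of 1.35 that lay near the median of 1.40 over 371 miRNAs. It mattered much for the other members. miR-148b-3p had 5868 exact and 27355 tailed-rule reads, a ratio of 4.66, and miR-152-3p had 1069 and 17141, a ratio of 16.03. Counting the member itself, 7 of the 371 miRNAs had a ratio at or above that of miR-148b-3p, and 2 had one at or above that of miR-152-3p. The 371 passed the study’s filter on low values, which asks for a mean of 5 RPTM or more over the profiles and an SD of 1 RPTM or more, and all 6 miRNAs of the family were among them.

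The 3’ ends of the 3p members thus came first. Nucleotides that are absent from the hairpin are known to be added to mature miRNAs by terminal nucleotidyltransferases, mostly as U or A. The most abundant reads of each member are printed with the letters that do not match the hairpin in capitals, because they show that members with the same seed ended differently.

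miR-148a-3p, first: ucagugcacuacagaacuuuguc

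miR-148a-3p, second: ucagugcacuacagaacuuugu

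miR-148b-3p, first: ucagugcaucacagaacuuuguUU

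miR-148b-3p, second: ucagugcaucacagaacuuuguU

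miR-152-3p, first: ucagugcaugacagaacuugggA

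miR-152-3p, second: ucagugcaugacagaacuugggAA

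The first form of miR-148a-3p, which runs 1 templated base past the annotated end, made up 38.0% of its reads, and the annotated form made up 30.3%. Neither has a tail. For miR-148b-3p, the form with UU made up 30.4% and that with U 22.1%, while the untailed annotated form made up 14.7%. For miR-152-3p, a single A after a templated end 1 base past the annotated one made up 50.8%, and AA at the same end made up 17.3%. Of the miR-152-3p reads whose templated part stopped at the annotated end, 91.7% carried a tail. Thus, the annotated form was the second form of miR-148a-3p, the third form of miR-148b-3p and not among the 8 most abundant forms of miR-152-3p.

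Over all profiles, 26.1% of the miR-148a-3p reads, 78.4% of the miR-148b-3p reads and 92.7% of the miR-152-3p reads had a tail. The median over the 371 miRNAs was 25.2%. Tails of U alone were found on 53.6% of the miR-148b-3p reads, where the median of all miRNAs was 2.05% and 4 of 371, the member included, were at or above it. Tails of A alone were found on 76.6% of the miR-152-3p reads, against a median of 3.80%, and no other of the 371 miRNAs reached that share or the share of tailed reads of miR-152-3p. miR-148a-3p was near the medians in tails of U (2.15%) and G (1.52%, median 1.46%), and had 7.50% with A and 12.7% with C (median 8.06%).

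The difference between members was present in each profile. The tailed share of miR-148a-3p ranged from 14.6% in spinal cord to 30.4% in liver, with a median of 21.8%. That of miR-148b-3p ranged from 68.4% in spinal cord to 84.5% in liver, with a median of 79.6%. That of miR-152-3p ranged from 89.7% in muscle 2 to 94.2% in liver, with a median of 92.6%. The 3 ranges do not overlap. U tails of miR-148b-3p lay between 47.7% (lung) and 62.4% (small intestine 2), and no profile of the other members was above 5.85%. A tails of miR-152-3p lay between 68.8% (muscle 2) and 83.5% (occipital lobe), and those of the other members reached at most 17.5%.

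**Figure D1:**
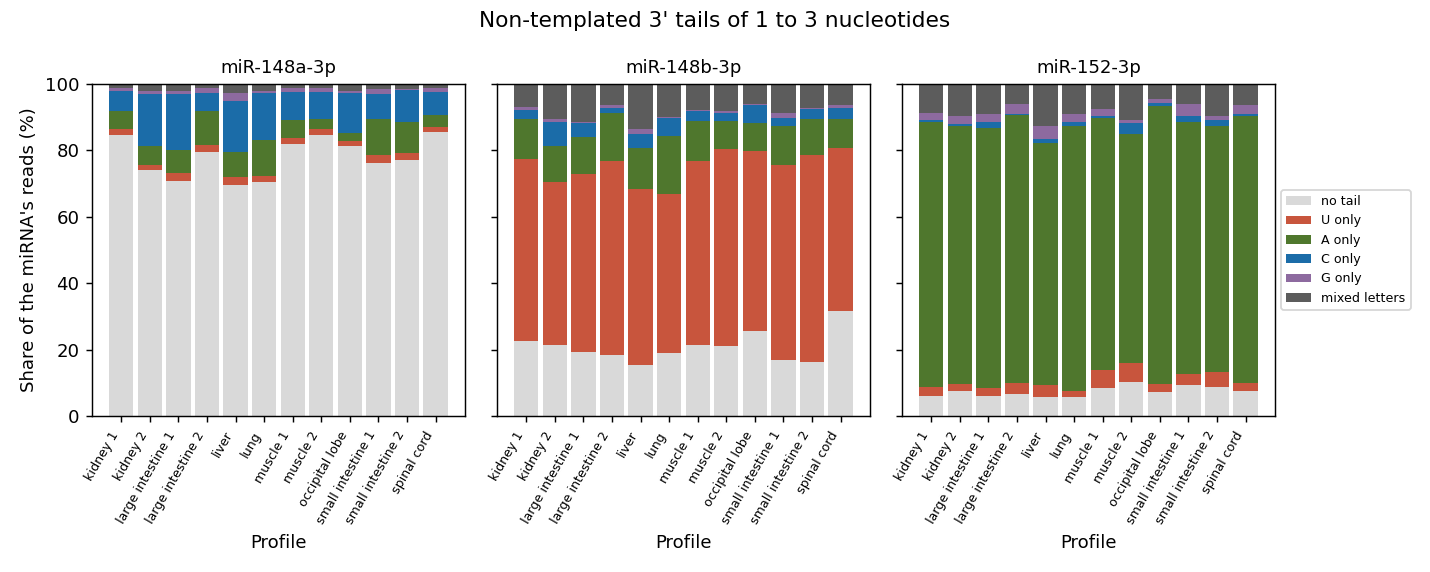
Stacked bars of the share of reads (%, vertical axis) without a tail and with tails of U, A, C, G or mixed letters, for each of the 3p members in each of the 12 profiles (horizontal axis). The miR-148a-3p bars are mostly untailed (14.6% to 30.4% tailed), those of miR-148b-3p are mostly U-tailed and those of miR-152-3p mostly A-tailed.

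These differences were tested within profiles with an exact sign-flip permutation test over the 12 profiles, two-sided, with Benjamini-Hochberg adjustment over 15 differences. Since the profiles share 2 animals, and some of them a tissue, they are not independent and the p-values may be too small. The tailed share of miR-148a-3p minus that of miR-152-3p was -70.4 ± 5.25 percentage points (SD, n = 12; negative in 12 of 12 profiles; adjusted p = 0.000666 by the exact permutation test). The same adjusted p, which comes from the smallest p of 0.000488 that 12 profiles allow, was found for miR-148a-3p minus miR-148b-3p, with a mean of -57.1 points and a range of -63.2 to -51.4 points, for miR-148b-3p minus miR-152-3p, with -13.3 ± 4.64 points, and for all 6 differences in U or A tails between members. For U tails, miR-148b-3p minus miR-152-3p was 51.2 ± 3.74 points (SD, n = 12), and for A tails it was -65.7 ± 4.39 points. The share of reads with the annotated 5’ end did not pass the test in any pair of members, with differences of 0.0226 to 0.0880 points in size. With tails of 1 nucleotide only, miR-148a-3p minus miR-152-3p did pass, at -0.0943 points (adjusted p = 0.00169 by the exact permutation test).

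The letter that followed a given templated end was then counted. After the end 1 base past the annotated end of miR-152-3p, the next base of the hairpin is c. In 12256 reads an A followed, in 452 the templated c, in 444 a G and in 388 a U. Of the reads with an A, 3131 went on with another A and 228 with C. After the annotated end of miR-148b-3p, the hairpin goes on with cuc. A U followed in 16623 reads, the templated c in 1782 and an A in 1762. A second U, which is the letter of the hairpin at that place, followed in 8636 reads. At the third place, where the hairpin has c again, 286 reads had U and 9 had c. In miR-148a-3p, whose hairpin also goes on with cuc, the templated c followed in 978430 reads, and U followed in 54166. Thus, miR-148a-3p and miR-148b-3p, with the same last 12 bases in the mature miRNA and the same 3 bases after it, carried different letters. No genome was used, and whether the hairpin sequence of these animals differs at these bases was not tested.

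The first letters of the 3’ adapter are TGGAA. Some miR-152-3p reads that end in acuugg followed by A (462 reads) or AA (737 reads) have the same letters as a shorter molecule joined to the start of the adapter, whereas the reads that end in acuuggg followed by A do not. Reads with uggaa past the annotated end made up 1.04%, 1.03% and 0.993% of the reads that begin with the first 18 bases of miR-148a-3p, miR-148b-3p and miR-152-3p.

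The templated part ended at 1 base past the annotated end in 78.4% of the miR-152-3p reads (72.4% to 84.6% among profiles) and at the annotated end in 82.2% of the miR-148b-3p reads (74.4% to 87.4%). For miR-148a-3p, no end took more than 49.5% in any profile. In all profiles pooled, 41.3% of its reads ended 1 base past, 34.7% at and 18.4% 1 base before the annotated end. Nearly all of the reads in the last class, 96.6%, carried a tail, mostly a C or an A in place of the last u. The share of the most common end was lower in miR-148a-3p than in the other members in 12 of 12 profiles, with differences of -39.2 ± 3.85 points against miR-148b-3p and -35.1 ± 4.33 points against miR-152-3p (SD, n = 12, adjusted p = 0.000666 by the exact permutation test). Between miR-148b-3p and miR-152-3p the difference was 4.09 ± 5.15 points, higher in miR-148b-3p in 9 of 12 profiles, with an adjusted p of 0.0299 by the exact permutation test. The direction turned with tails of 1 nucleotide only, to -12.7 points (adjusted p = 0.00061 by the exact permutation test), and over 8 tissues in place of 12 profiles the difference was 2.97 points (adjusted p = 0.176 by the exact permutation test). The call was also lost without any 1 of 6 profiles (both muscle profiles, both small intestine profiles, kidney 1 or large intestine 1), with values from 3.45 to 3.92 points.

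**Figure D2:**
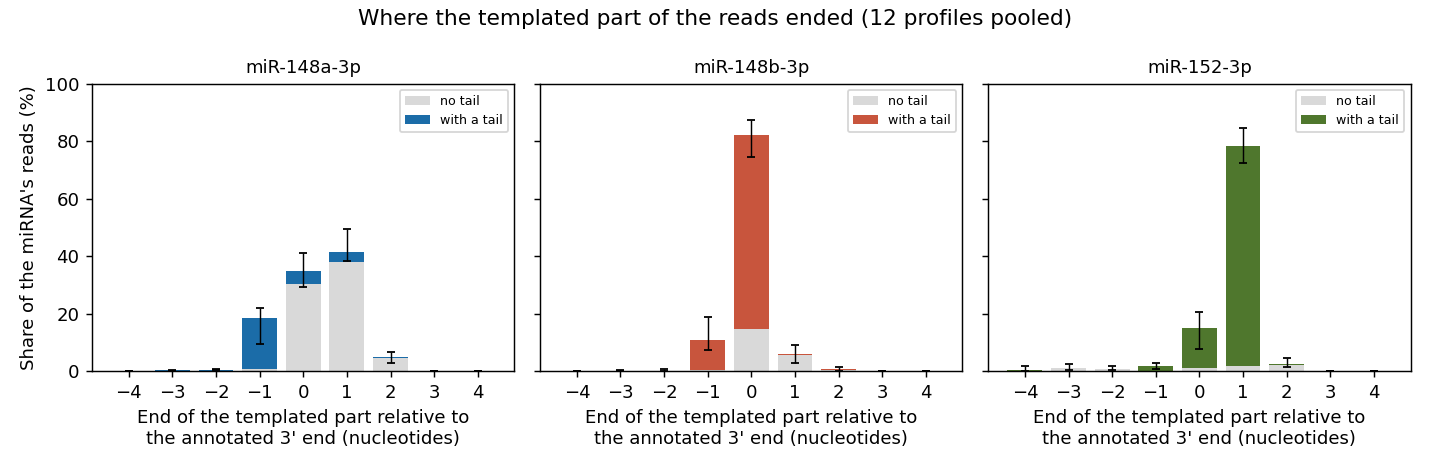
Share of reads (%, vertical axis) by where the templated part ended relative to the annotated 3’ end (nucleotides, horizontal axis), with 12 profiles pooled. Coloured parts carried a tail, grey parts did not, and whiskers span the lowest and highest profile. The reads of miR-152-3p gather at 1 base past the annotated end, and those of miR-148b-3p at it, where most are tailed.

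Differences between tissues in ends and tails were compared with the differences between the 2 profiles of a tissue, by an exact one-sided permutation test over the 51975 ways to draw 4 pairs from 12 profiles, adjusted over 21 measures of shares, arms and ends. Of these, 1 measure passed, the tailed share of miR-148b-3p. The values were 77.3% and 78.4% in kidney, 80.5% and 81.6% in large intestine, 78.6% and 78.7% in muscle, 83.0% and 83.8% in small intestine, 84.5% in liver, 81.0% in lung, 74.4% in occipital lobe and 68.4% in spinal cord. The profiles of a tissue lay within 0.767 points on average, and profiles of different tissues 5.22 points apart (p = 0.000289, adjusted p = 0.00606, exact permutation test). Without muscle 2 the adjusted p was 0.0664, and with tails of 1 nucleotide only it was 0.108. The tailed share over all miRNAs moved too, with the lowest median in spinal cord (19.9%) and the highest in liver (33.5%), the same profiles as for miR-148b-3p. Between these, the medians were 21.1% and 30.8% in kidney and 33.0% and 20.5% in large intestine, wider gaps than those of miR-148b-3p. Occipital lobe, at 74.4% for miR-148b-3p, had a median of 29.0%. The part of the tailed share over all miRNAs in the result was not tested.

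C tails of miR-148a-3p differed between profiles of 1 tissue. They made up 5.89% in kidney 1 and 15.7% in kidney 2, and 16.8% in large intestine 1 and 5.35% in large intestine 2. The medians over all miRNAs in these profiles were 4.49%, 11.2%, 13.0% and 4.41%, in the same order of profiles within each tissue. The medians over all miRNAs stayed between 1.47% and 2.57% for U tails and between 2.83% and 5.68% for A tails, so that the U tails of miR-148b-3p and the A tails of miR-152-3p lay far above them in each profile.

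The level of miR-148a-3p was the highest of the family in each profile, with the highest value in liver and the lowest values in neural tissue. By the exact rule it was at 43503 and 73797 RPTM in kidney, 32167 and 27270 RPTM in large intestine, 261170 RPTM in liver, 32344 RPTM in lung, 39201 and 17820 RPTM in muscle, 45959 and 56884 RPTM in small intestine, 5615 RPTM in the occipital lobe and 12322 RPTM in the spinal cord. Liver lay above and the neural profiles below the range of the others. Among the 371 miRNAs, miR-148a-3p ranked from 4 in liver to 51 in occipital lobe. The muscle profiles differed by 1.14 on the log2 scale, against a median of 0.46 over all miRNAs in these profiles, and the red blood cell miRNAs given above also differ between them. Their part in the muscle values was not tested. In bulk tissue, fewer cells of a type and less of the miRNA per cell cannot be told apart.

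In edgeR’s quasi-likelihood test of each group against the mean of the other 6, miR-148a-3p was 8.09-fold higher in liver (log2 fold change 3.02, SE 0.45, adjusted p = 0.000655). The liver has 1 profile, which was assumed to vary like the other groups. In this profile 36.8% of the valid reads matched a hairpin exactly, the lowest share of the 12 profiles (median 59.7%). It also had the lowest share of reads of 21 to 23 nucleotides (57.3%) and the most unique sequences (825750). The part of these traits in the liver values was not tested. Of 371 miRNAs, 11.9% were called higher in liver. In the neural group, miR-148a-3p fell by 3.80 on the log2 scale (SE 0.57, edgeR adjusted p = 8.65e-05), where 24.3% of miRNAs were called lower and 43.7% higher. The 162 higher and 90 lower calls in the neural group depend on the scaling. Scaled by valid reads alone, which shifts the median of all miRNAs by 1.15 on the log2 scale, there were 232 higher and 46 lower calls, and miR-148a-3p was lower there too, with a log2 fold change of -2.56 and an edgeR adjusted p of 0.000758. The shift was 0.65 in lung, -0.79 in large intestine, -0.71 in small intestine and -0.40 in kidney.

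Kidney and small intestine were next in level. Their log2 fold changes against the other groups were 1.10 (SE 0.40, edgeR adjusted p = 0.0800) and 1.08 (SE 0.40, edgeR adjusted p = 0.0794), which missed the threshold, while 12.9% and 13.2% of miRNAs were called higher. With occipital lobe and spinal cord as separate groups, kidney and small intestine were past the threshold, at 1.56 and 1.54. Both passed when liver, occipital lobe or spinal cord was left out, with the largest values without liver, 1.65 in kidney and 1.63 in small intestine. In the order of the mean RPTM, the neighbours kidney and small intestine, small intestine and lung, lung and large intestine, and large intestine and muscle did not differ past the threshold, with edgeR adjusted p-values of 0.993, 0.137, 0.346 and 0.354. The tests used TMM factors, which placed lung lower. Large intestine minus lung was 1.12 on the log2 scale and lung minus muscle was -0.40. Liver and kidney, the first neighbours, had an edgeR adjusted p of 0.109 at a log2 difference of 1.64 (SE 0.65). Muscle was above the neural group by 2.75 on the log2 scale (SE 0.59, edgeR adjusted p = 0.00171), as were 29.1% of miRNAs past the threshold. Among the 21 pairs of groups, 9 were called for miR-148a-3p, against a median of 6 over the 371 miRNAs and 29.6% of the tests over all miRNAs and pairs. Without liver, which takes 6 of the pairs away, 5 pairs were called.

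**Figure D3:**
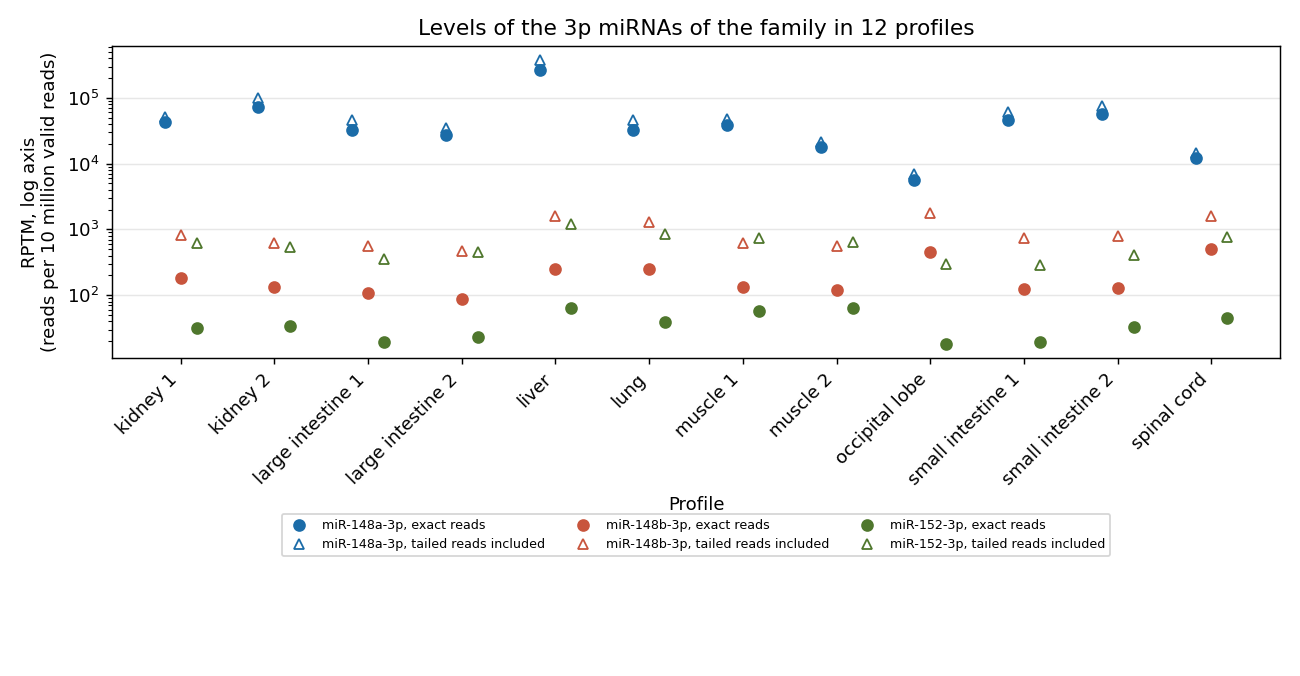
RPTM (log axis) of the 3p members in the 12 profiles, by the exact rule (filled circles) and with tailed reads included (open triangles). The circles and triangles of miR-148a-3p lie close together, whereas those of miR-152-3p lie far apart.

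The level of miR-148b-3p varied less. By the exact rule it was at 185 and 134 RPTM in kidney, 109 and 86.3 RPTM in large intestine, 250 RPTM in liver, 247 RPTM in lung, 133 and 119 RPTM in muscle, 123.6 and 129 RPTM in small intestine, 451 RPTM in the occipital lobe and 504 RPTM in the spinal cord. Both neural profiles lay above all others. With TMM factors the neural group also had the highest log2 fold change of the 7 groups, 0.45 (SE 0.31). It missed the threshold there (edgeR adjusted p = 0.201). With valid reads the value was 1.60 (edgeR adjusted p = 0.000368). The direction turned with tailed reads included, to -0.29 (edgeR adjusted p = 0.284). By edgeR with TMM factors, 0 groups and 0 of the 21 pairs were called for miR-148b-3p. Only 1 of these tests, that of muscle and the neural group, had an unadjusted p under 0.05 by edgeR (adjusted p = 0.0595), and DESeq2 called 1 pair and muscle as lower. With valid reads 4 pairs were called. With tailed reads included, the level ranged from 474 RPTM in large intestine 2 to 1768 RPTM in occipital lobe, and liver (1614 RPTM) was between the neural profiles.

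miR-152-3p was the least abundant member by the exact rule. It was at 31.7 and 34.3 RPTM in kidney, 19.4 and 23.4 RPTM in large intestine, 64.1 RPTM in liver, 38.9 RPTM in lung, 56.7 and 64.1 RPTM in muscle, 18.3 RPTM in the occipital lobe, 19.6 and 33.3 RPTM in small intestine and 44.8 RPTM in spinal cord. Liver and muscle were highest, and the neural profiles overlapped the others. With TMM factors the neural group was lower, with a log2 fold change of -1.49 (SE 0.49, edgeR adjusted p = 0.0157), where 24.3% of miRNAs were called lower. For miR-152-3p 4 pairs were called, against a median of 6 over the 371 miRNAs. Each was a pair with the neural group, in which many miRNAs were called, namely 60.6% for kidney, 44.2% for liver, 67.4% for muscle and 59.3% for small intestine. With valid reads the log2 fold change was -0.25 (edgeR adjusted p = 0.634) and 0 pairs were called, and without the occipital lobe it was -1.14 (edgeR adjusted p = 0.0916). The count of pairs was 2 without kidney 1, kidney 2, large intestine 1, liver or muscle 1, and 1 without the occipital lobe. With tailed reads included, the level was between 290.1 RPTM in small intestine 1 and 1221 RPTM in liver, and the fold change of the neural group was -1.54 (edgeR adjusted p = 0.00524). The rank of miR-152-3p among the 371 miRNAs moved from between 171 and 273 to between 80 and 163.

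**Figure D4:**
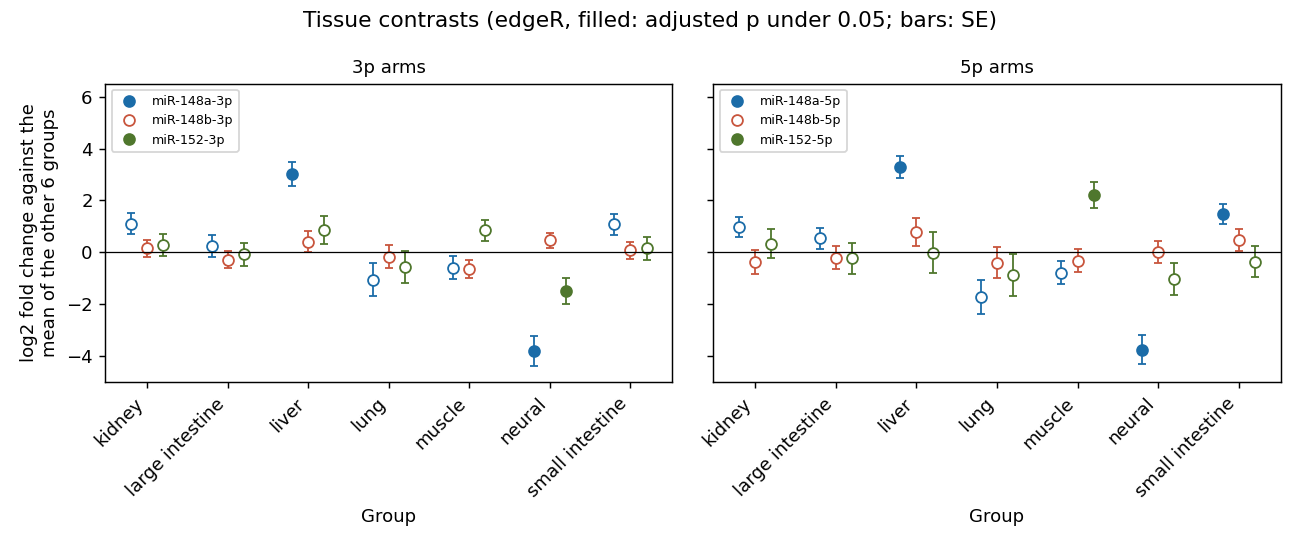
Log2 fold changes (vertical axis) of the 3p and 5p miRNAs in each of 7 groups (horizontal axis) against the mean of the other 6, from edgeR with TMM factors. Whiskers are standard errors, and filled points have adjusted p under 0.05. Liver and the neural group hold the 3p calls, and muscle and small intestine hold further 5p calls.

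Since the 3p members have the same seed, their shares of the 3p reads of the family were compared. By the exact rule, miR-148a-3p held 99.9% of these reads in liver (95% Wilson interval 99.87% to 99.89%) and 92.3% in occipital lobe (91.8% to 92.7%), the highest and lowest of the 12 profiles. The median was 99.6%. miR-148b-3p held from 0.0955% in liver to 7.41% in occipital lobe, with 3.92% in spinal cord and at most 0.758% outside the neural profiles. miR-152-3p held from 0.0245% in liver to 0.356% in muscle 2. The intervals cover counting error only, because PCR copies of a molecule cannot be told apart.

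With tailed reads included, the minor members gained. The share of miR-148a-3p was 99.3% in liver, 85.9% in spinal cord and 77.0% in occipital lobe, and that of miR-148b-3p was 19.7% in occipital lobe and 9.55% in spinal cord. The share of miR-152-3p reached 4.55% in spinal cord and was 0.323% in liver. The order of the minor members also depended on the rule in muscle. By the exact rule, miR-148b-3p was above miR-152-3p in 12 of 12 profiles, with a ratio of 1.86 in muscle 2 and 24.7 in occipital lobe. With tailed reads, it was above in 10 profiles and below in both muscle profiles, where miR-148b-3p was at 623 and 562 RPTM and miR-152-3p at 729.7 and 640.1 RPTM. The difference of the shares between tissues did not pass the exact permutation test after adjustment over the 21 measures. The unadjusted p-values were 0.0138, 0.0126 and 0.110 for miR-148a-3p, miR-148b-3p and miR-152-3p, and the adjusted ones 0.0964, 0.0964 and 0.258. Without muscle 1 the share of miR-148a-3p passed, with an adjusted p of 0.0404 by the exact permutation test.

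**Figure D5:**
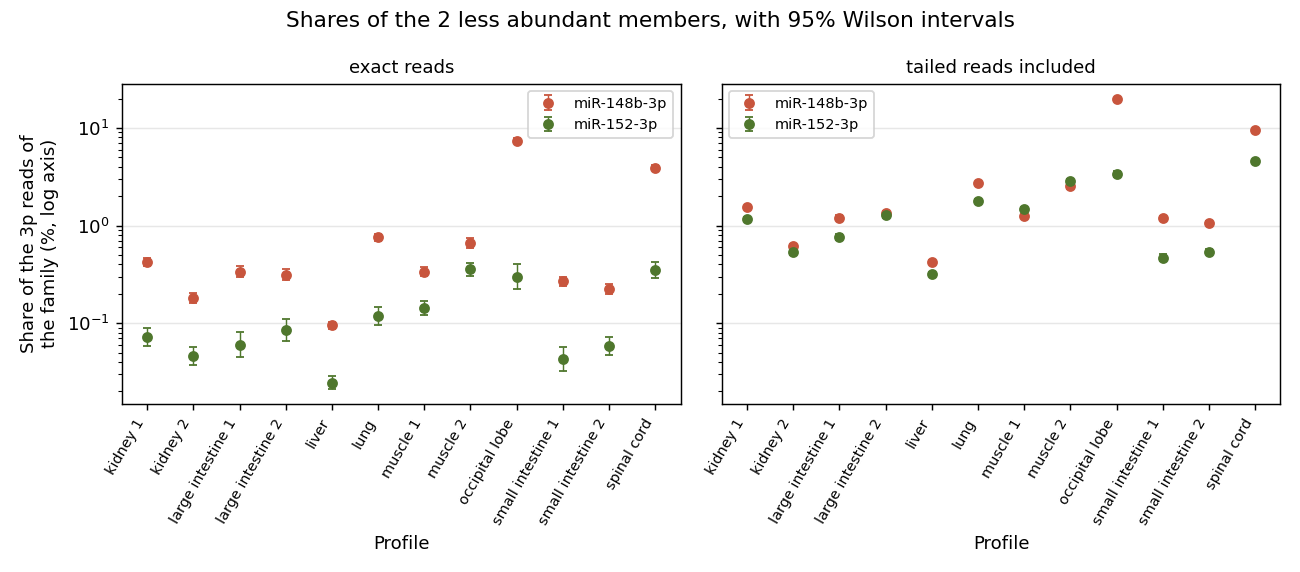
Share of the 3p reads of the family (%, log axis) held by miR-148b-3p and miR-152-3p in the 12 profiles, by the exact rule and with tailed reads included, with 95% Wilson intervals. Both shares are lowest in liver, and those of miR-148b-3p are highest in occipital lobe and spinal cord.

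The 5p arms were measured next. The strand of the duplex that is not loaded into Argonaute is degraded, so that the arm with fewer reads is usually called the passenger. miR-148a-5p followed its 3p partner. It was at 4688 RPTM in liver, 95.2 RPTM in the occipital lobe and 184 RPTM in the spinal cord, and between 204 and 1117 RPTM in the other profiles. It was 9.67-fold higher in liver (log2 fold change 3.27, SE 0.43, edgeR adjusted p = 0.000455) and fell by 3.76 on the log2 scale in the neural group (SE 0.56, edgeR adjusted p = 7.72e-05). In small intestine it was at 1117 and 876 RPTM, 2.79-fold above the other groups (edgeR adjusted p = 0.0169), where 13.2% of miRNAs were called higher. This call was lost with valid reads (log2 fold change 0.77, edgeR adjusted p = 0.158). It was also lost without kidney 1, large intestine 2 or either small intestine profile, where the log2 fold change was 1.21 to 1.68, and in the fits on the 8 numbered profiles, where it was 0.89 with a replicate block and without one (edgeR adjusted p = 0.145 and 0.124).

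miR-152-5p stood out in muscle, where it was at 75.1 and 49.2 RPTM. Spinal cord had 34.3 RPTM and the other 9 profiles between 5.65 and 18.4 RPTM. Its log2 fold change in muscle was 2.20 (SE 0.50, edgeR adjusted p = 0.00407), where 22.6% of miRNAs were called higher, and it was 1.79 without muscle 1 (edgeR adjusted p = 0.0845). miR-148b-5p was at 15.3 to 64.3 RPTM, with the highest values in occipital lobe (64.3), spinal cord (57.7) and liver (52.8), and no group was called by edgeR with TMM factors. With valid reads, the neural group was called with a log2 fold change of 1.13 (edgeR adjusted p = 0.0222).

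The balance of the arms differed between hairpins, and for mir-148b and mir-152 it depended on the counting rule. By the exact rule, the 5p arm held 1.03% to 2.37% of the mir-148a reads, 10.2% to 20.7% of the mir-148b reads and 21.7% to 57.0% of the mir-152 reads in a profile. In muscle 1, mir-152 had 180 reads on 5p and 136 on 3p. With tailed reads, the same profile had 223 and 1749, and the 5p arm held 1.13% to 2.42% of mir-148a, 3.61% to 6.53% of mir-148b and 2.26% to 11.3% of mir-152. Thus, the 5p reads of mir-152 did not exceed the 3p reads in any profile once tailed reads were counted. Muscle had the highest 5p shares of mir-152 by either rule, with 57.0% and 43.5% by the exact rule and 11.3% and 8.98% with tailed reads. By the exact rule spinal cord was level with muscle 2, at 43.4% (95% Wilson interval 36.5% to 50.5%), and with tailed reads it was at 4.95%. The exact permutation test of differences between tissues gave adjusted p-values of 0.471, 0.308 and 0.372 for mir-148a, mir-148b and mir-152 by the exact rule. For mir-152 only 8 profiles had at least 100 reads, for which the smallest p is 0.00476.

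The 5p arms had the tails that were scarce on miR-148b-3p and miR-152-3p. C tails were found on 28.5% of the miR-148a-5p reads, 18.7% of the miR-148b-5p reads and 20.5% of the miR-152-5p reads, against a median of 8.06% over all miRNAs. These shares pool profiles that differ in C tails, and liver gave 18795 of the 39628 reads of miR-148a-5p. The second form of miR-148a-5p is shown because it differs from the annotated miRNA by the last letter.

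miR-148a-5p, first: aaaguucugagacacuccgacu

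miR-148a-5p, second: aaaguucugagacacuccgacC

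The first form made up 58.2% and the second 26.7% of the reads. Whether the C stands in place of the last u or was added after its loss cannot be told apart. As for the 3p arm, large intestine 1 (40.2%) and large intestine 2 (11.1%) had the highest and the lowest shares of C tails on miR-148a-5p. A tails made up 0.459% of the miR-148a-5p reads and 0.358% of the miR-152-5p reads, so that the A tails of miR-152-3p were not shared by the other arm of its hairpin.

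Next, the 5’ ends were examined, since a shift there changes the seed. Of the 3p reads, 99.8% of each member began at the annotated base. The 5p arms were less uniform. miR-152-5p began 1 base earlier in 22.2% of its reads, with the seed agguucu, and miR-148a-5p in 4.84%, with the seed aaaguuc. miR-148b-5p began 1 base later in 6.80%, with the seed aguucug. The shifted reads of miR-152-5p numbered 186 in all, so that their share is not given by profile.

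Changes of a single base within the first 18 bases were then counted, with limits that the study sets for a site. These are a level of at least 5%, at least 10 reads and an adjusted p under 0.05, here from a binomial test. The study also ran a cross-mapping correction on alignments to the genome, for reads that align at several places. That step was not done here. Over the 12 profiles 21 calls passed, 12 of them in miR-148b-3p and 9 in miR-152-3p. At all of these calls the changed read is as near to miR-148a-3p as to the member. U9C of miR-148b-3p has the letters of U10C of miR-148a-3p, C10U of miR-148b-3p and G10U of miR-152-3p have those of C9U of miR-148a-3p, and U9C of miR-152-3p has those of U10G of miR-148a-3p. The levels were highest in liver, with 25.1% for U9C and 12.8% for C10U of miR-148b-3p and 19.7% for G10U of miR-152-3p. Set against the miR-148a-3p reads, the same reads were 0.0236% to 0.214% in the profiles with at least 10 of them. Without such shared reads, 0 calls passed at 5% by the exact binomial test, and at 1% the only call was U18C of miR-152-3p in large intestine 1, with 12 of 878 reads (1.37%). In miR-148a-3p, with 2248995 reads compared, the most frequent changes were C17U at 0.381% and A8G, the last base of the seed, at 0.379%. Neither passed 1% in any profile.

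Last, the miRNAs with the most similar pattern were named, by the Pearson correlation of log2(RPTM + 1) over the 12 profiles. These values are a description without a test, since profiles share tissues and animals. miR-148a-3p was most like miR-3614-5p (0.774), miR-21-3p (0.701) and miR-21-5p (0.696), of which the first was highest in liver, at 106 RPTM, and the other two in muscle 2, at 3613 and 116308 RPTM. miR-148a-3p itself had its lowest level outside the neural profiles in muscle 2. miR-148b-3p was most like miR-339-3p (0.950), miR-103-1-3p (0.945) and miR-107-3p (0.937), all of them highest in occipital lobe. miR-152-3p was most like miR-22-3p (0.865), miR-365-1-3p (0.846) and miR-193b-3p (0.836), all of them highest in muscle 2. The members were less like each other, with -0.36 between miR-148a-3p and miR-148b-3p, 0.36 between miR-148a-3p and miR-152-3p and 0.11 between miR-148b-3p and miR-152-3p. The arms of a hairpin had correlations of 0.975 for mir-148a, 0.886 for mir-148b and 0.848 for mir-152.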

How the data were processed

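Small RNA libraries of 12 macaque tissue profiles were sequenced by the authors, who kept reads with sequencing scores of at least 30 over 25 nucleotides, removed the 3’ adapter and deposited counts of unique sequences of at least 18 nucleotides, without normalization. Sequences were aligned here, in Python 3.11.15, by their first 16 bases to 832 pre-miRNAs, a part of the study’s list, and counted by the exact and the tailed rule. The test of counts was the quasi-likelihood test of edgeR 4.0.16 in R 4.3.3 (TMM factors, Benjamini-Hochberg adjustment over 371 miRNAs, threshold 0.05). Each of 7 groups was set against the mean of the other 6, and standard errors were derived from the F statistic. Shares were compared with exact permutation tests over profiles with at least 100 reads. Wilson intervals have a confidence level of 95%. The error rate for base changes was 0.001.

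The members, lists and tests were chosen with earlier results of these data known. The miRNAs named are both arms of the 3 hairpins, the 3 miRNAs most correlated with each 3p member, and tissue markers from a list. The alternatives were valid reads in place of TMM factors, DESeq2 1.42.0, other counting rules, no filter, 8 groups, a replicate block, shorter tails, 8 tissues in place of 12 profiles, and leaving out 1 profile at a time. The fit on the 8 numbered profiles without a block was added after seeing the data. The edgeR step was tested on simulated data. The genome was not used here.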

Additional observations from a re-analysis of the deposited data

Results flagged for a closer look

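A few reads on the 3 hairpins lay outside the windows of both arms and entered no comparison, namely 572 on mir-148a, 88 on mir-148b and 6 on mir-152. They made up 0.0264%, 0.305% and 0.0334% of the reads on these hairpins. All but 1 of them overlapped an arm, and 0 lay in the loop alone. On mir-148a, 233 of them began within 2 bases of the start of the 3p miRNA, and their matching part ended more than 4 bases from its annotated end. The mir-148a hairpin holds only cuc past that miRNA, so that these reads stopped before the annotated end. On mir-148b, 68 reads began likewise on the 5p arm and ended more than 4 bases from its annotated end, in a direction that was not recorded.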

How the results depend on the processing

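Of 939 values of the main comparisons under alternatives, 892 kept their direction and their side of the threshold, or stayed within the limits set for counts, and of 393 values of the 5p miRNAs 375 did so. Where no cause is named, it was not tested. Scaled by valid reads, miR-148b-3p had log2 fold changes of -1.08 in large intestine and 1.60 in the neural group, both now past the threshold, and miR-152-3p had -0.25 in the neural group, no longer past it. Pairs called were then 4 for miR-148b-3p and 0 for miR-152-3p. With DESeq2, miR-148a-3p passed in kidney (1.25) and small intestine (1.13), miR-148b-3p passed in muscle (-0.61), and 1 pair was called for miR-148b-3p. With 8 groups, occipital lobe and spinal cord apart, miR-148a-3p passed in kidney (1.56) and small intestine (1.54) and miR-152-3p in muscle (1.02), and of 28 pairs in place of 21, 19 were called for miR-148a-3p and 1 for miR-148b-3p. miR-148a-3p also passed in kidney without the filter on low values (1.22), and in small intestine with identical reads only (1.17) and with tailed reads (1.25).

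With tails of 1 nucleotide only, the ratio of the differences within to those between tissues for the tailed share of miR-148b-3p was 0.406 and no longer passed. The most common end of miR-148b-3p minus that of miR-152-3p then reversed to -12.7 points, and the annotated 5’ end of miR-148a-3p minus that of miR-152-3p reversed to -0.0943 points. Both passed the threshold in the reversed direction. Over 8 tissues in place of 12 profiles, the first of these was 2.97 points and no longer passed. At a level of 1% in place of 5%, 45 calls of base changes passed in place of 21.

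Leaving out 1 profile at a time, the log2 fold change of miR-148a-3p ranged from 0.56 to 1.65 in kidney and from 0.92 to 1.63 in small intestine, and that of miR-152-3p in the neural group from -1.96 to -1.14. The pairs called ranged from 5 to 13 for miR-148a-3p, 0 to 1 for miR-148b-3p and 1 to 5 for miR-152-3p. The ratio for the share of miR-148a-3p ranged from 0.0451 to 0.207 and that for the tailed share of miR-148b-3p from 0.119 to 0.201. The most common end of miR-148b-3p minus that of miR-152-3p ranged from 3.45 to 4.77 points. The annotated 5’ end of miR-148a-3p minus that of miR-148b-3p ranged from -0.0907 to -0.0432 points, and passed without kidney 2.

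The labels do not say what the profile numbers stand for, so that the numbers were not taken to pair profiles. Profiles with the same number did not deviate together (correlations of -0.139 to 0.153 over 6 pairs of tissues). This cannot show whether they come from the same animal. With the replicate block on the 8 numbered profiles, 85 miRNAs were higher and 66 lower in muscle, against 91 and 74 without it. In that fit miR-148a-3p in muscle was not past the threshold, while on the same 8 profiles without a block, an alternative chosen after seeing the data, it was (-1.24).

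The minor members limit what the depth can show, since miR-152-3p had 42 to 159 exact reads in a profile. Liver and lung have 1 profile each, and their tests borrow the spread of the other groups.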
